A study of Mus musculus with 8 samples.

Results

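Ace, Eno3, Spn, Pglyrp1 and Adgre4 are genes by which non-classical monocytes are recognised, and their levels were followed in 2 populations of sorted mouse dendritic cells. They are 5 of 19938 genes with a value, and were found as the probe sets whose platform annotation names exactly 1 gene, that gene being 1 of the 5. Each of the 5 had 1 such probe set. One population was labelled as myeloid dendritic cells of bone marrow, taken from femur and tibia, and the other as classical dendritic cells of spleen. Each population had 4 arrays, 1 from each of 4 mice, so that every mouse gave both a bone marrow and a spleen array. All mice, in both groups, were 8 weeks old and of genotype CX3CR1-gfp/+, with a green fluorescent protein gene at 1 allele of the fractalkine receptor locus. The labels give no agent for any group other than CO2 at death, and the gate of the sort is not stated there. RNA inputs of 100 pg to 2 ng were amplified and hybridised to Affymetrix mogene 1.0 ST arrays, which carry many probes along each gene.

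Non-classical monocytes patrol the inside of blood vessels and clear debris from them. In the mouse they carry little Ly6C and much CX3CR1, and most arise from classical Ly6C-high monocytes under the nuclear receptor Nr4a1. Several of their genes are also active in dendritic cells and in other leukocytes, so that none of the 5 marks a single cell type. Adgre4 encodes an adhesion G protein-coupled receptor of the EGF-TM7 family found on myeloid cells. Ace encodes angiotensin-converting enzyme, a membrane peptidase that also trims peptides for display on class I molecules. Spn encodes CD43, the heavily sialylated mucin of the leukocyte surface. Pglyrp1 encodes a secreted protein that binds bacterial peptidoglycan and is stored in neutrophil granules. Eno3 encodes the beta subunit of enolase, the glycolytic enzyme best known as the isoform of muscle.

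The 250 bases before an annotated start are shown for the 3 genes that were higher in bone marrow and for Pglyrp1, which did not pass the test, so that the letters of the called genes can be set beside those of one that was not called. They come from RefSeq, build GRCm38.p6, are written 5′ to 3′ on the gene's strand, and carry in capitals every match to the motifs searched.
Adgre4, chr17:55749734-55749983, plus strand: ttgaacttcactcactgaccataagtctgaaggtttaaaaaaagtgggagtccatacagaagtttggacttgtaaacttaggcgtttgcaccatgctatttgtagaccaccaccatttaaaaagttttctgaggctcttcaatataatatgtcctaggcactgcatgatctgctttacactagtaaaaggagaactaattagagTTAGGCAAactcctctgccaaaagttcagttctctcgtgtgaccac
Ace, chr11:105967698-105967947, plus strand: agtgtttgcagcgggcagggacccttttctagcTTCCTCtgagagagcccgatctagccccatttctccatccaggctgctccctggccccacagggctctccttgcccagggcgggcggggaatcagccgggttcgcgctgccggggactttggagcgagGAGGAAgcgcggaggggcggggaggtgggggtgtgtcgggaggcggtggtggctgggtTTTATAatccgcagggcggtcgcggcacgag
Spn, chr7:127137824-127138073, minus strand: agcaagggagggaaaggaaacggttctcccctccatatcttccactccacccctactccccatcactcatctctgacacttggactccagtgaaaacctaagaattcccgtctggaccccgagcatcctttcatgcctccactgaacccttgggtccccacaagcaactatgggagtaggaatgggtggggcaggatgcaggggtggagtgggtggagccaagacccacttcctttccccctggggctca
Pglyrp1, chr7:18884440-18884689, plus strand: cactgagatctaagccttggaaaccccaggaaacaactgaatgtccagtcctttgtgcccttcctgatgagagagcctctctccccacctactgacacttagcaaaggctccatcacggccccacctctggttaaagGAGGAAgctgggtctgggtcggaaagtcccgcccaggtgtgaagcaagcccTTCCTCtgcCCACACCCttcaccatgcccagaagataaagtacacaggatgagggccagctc
The motifs, searched on both strands, were the NR4A element AAAGGTCA, the PU.1 core GAGGAA, the C/EBP motif TTNNGNAA, the KLF element CCACACCC and the TATA box TATAAA. Ace held 2 PU.1 cores and a TATA box, written on the other strand as TTTATA, at 31 to 26 bases before the start. Adgre4 held 1 C/EBP match, which overlapped no other motif, and Spn held none of the 5 motifs. Pglyrp1 held 2 PU.1 cores and 1 KLF element, and Eno3, whose window is not shown, held 2 overlapping C/EBP matches. Of 32851 such windows in the RefSeq table, 23.3% held a PU.1 core, 36.8% a C/EBP match, 12.4% a TATA box, 3.2% the KLF element and 1.34% the NR4A element. No motif was present in all 3 of the genes that were higher in bone marrow. For Ace the table also holds a second start, inside the gene, whose window held no match. The windows of Spn and Eno3 also lie inside the gene's annotated span, so that they precede a start other than the outermost one. The bases that matched differ in setting, since the window was 67.2% G and C in Ace and 39.6% in Adgre4.

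Adgre4, Ace and Spn were higher in the bone marrow population, and Pglyrp1 and Eno3 did not pass the test. The rise was 3.04-fold for Adgre4, 2.51-fold for Ace and 1.61-fold for Spn. Over all genes tested, 9.26% were called higher and 9.2% lower in bone marrow, 18.5% in all (limma, Benjamini-Hochberg adjusted p under 0.05), against which 3 of the 5 were higher and none lower. The median log2 fold change of the 5 was 0.68, against -0.0071 over all genes. The groups did not overlap in 3 of the 5, all higher in bone marrow, as was so in 20.6% of all genes (10.4% higher and 10.2% lower). Values are deposited intensities on a linear scale, fold changes are differences of mean log2 intensity, bone marrow minus spleen, and SE is limma's moderated standard error. In sorted populations measured as a whole, a smaller share of cells that carry a transcript and less of it per cell cannot be told apart.

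Adgre4 stood at 3974, 4542, 4660 and 5179 in bone marrow replicates 1 to 4, against 1496, 1161, 1580 and 1851 in spleen replicates 1 to 4. Every bone marrow array lay above every spleen array, by more than the spread of either group. The difference was 1.61 ± 0.13 on the log2 scale (SE, n = 4 per group, 95% interval 1.32 to 1.89, limma adjusted p = 1.5e-06), the largest of the 5. Within single mice it was 1.41, 1.97, 1.56 and 1.48 for mice 1 to 4, so that all 4 mice had more Adgre4 signal in marrow cells.

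Ace had intensities of 3180, 3983, 3470 and 4594 in bone marrow, against 1789, 1321, 1410 and 1526 in spleen. The groups did not overlap, and the lowest bone marrow array lay well above the highest spleen array. The log2 difference was 1.33 ± 0.12 (SE, n = 4 per group, 95% interval 1.06 to 1.60, limma adjusted p = 5.4e-06). Mouse 1 showed the smallest difference within a mouse, 0.83 on the log2 scale, and the other three lay between 1.30 and 1.59.

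Spn had intensities of 594, 614, 556 and 834 in bone marrow, against 417, 364, 342 and 491 in spleen. The groups were again separate, but the gap was narrow, 556 in bone marrow replicate 3 against 491 in spleen replicate 4. The log2 difference was 0.68 ± 0.14 (SE, n = 4 per group, 95% interval 0.38 to 0.98, limma adjusted p = 0.0032). It was positive in all 4 mice, from 0.51 to 0.76. The 95% interval of Spn lay below those of Ace and Adgre4.

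Pglyrp1 had intensities of 925, 1010, 796 and 1311 in bone marrow, against 1154, 1147, 974 and 1147 in spleen. The bone marrow arrays lay on both sides of the spleen arrays. The log2 difference was -0.15 ± 0.13 (SE, n = 4 per group, 95% interval -0.44 to 0.13, limma adjusted p = 0.58). It was -0.32, -0.18 and -0.29 in mice 1 to 3 and 0.19 in mouse 4.

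Eno3 had intensities of 686, 953, 696 and 1323 in bone marrow, against 994, 1185, 1040 and 814 in spleen. Its groups overlapped, with both the highest and the lowest of the 8 values in bone marrow. The log2 difference was -0.18 ± 0.19 (SE, n = 4 per group, 95% interval -0.59 to 0.22, limma adjusted p = 0.66). Mice 1 to 3 had less Eno3 signal in marrow cells, by -0.53, -0.31 and -0.58 on the log2 scale, and mouse 4 had more, by 0.70. With both arrays of mouse 4 left out, a choice made after these values were seen, the difference was -0.48 and passed the threshold as lower in bone marrow (limma adjusted p = 0.031). Without bone marrow replicate 4 alone it was -0.38 and did not pass (adjusted p = 0.11).

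**Figure D1:**
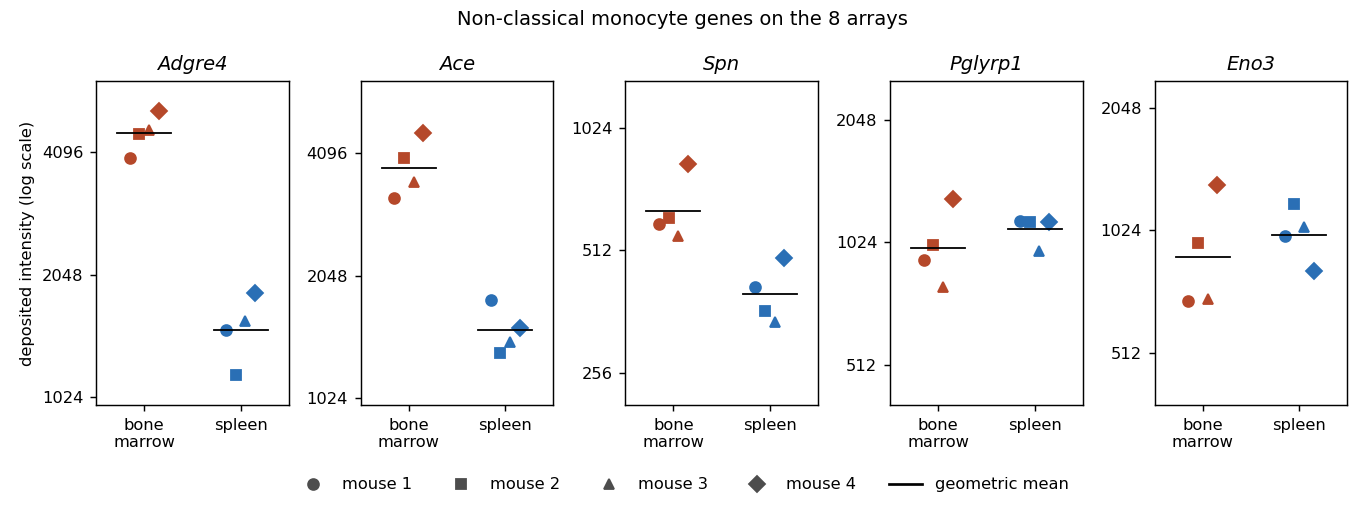
Deposited intensity (log axis, a panel per gene, each spanning the same fold range) of the 5 genes on the 4 bone marrow arrays, left, and the 4 spleen arrays, right; marker shapes stand for mice and lines for geometric means. Adgre4, Ace and Spn separate by tissue, Pglyrp1 and Eno3 overlap, and the bone marrow array of mouse 4 is the highest of its group in every panel.

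The genes did not change in step with each other. Within an array, the log2 ratio of Ace to Pglyrp1 was 1.48 higher in bone marrow than in spleen, and that of Spn to Pglyrp1 was 0.83 higher. Ratios of this kind do not depend on a single scaling factor per array, though a scaling that varies with intensity can change them. The ratio of Ace to Spn was 0.64 higher and that of Spn to Adgre4 lower by -0.92, also with no overlap between the tissues. Ratios overlapped for Ace with Adgre4 and for Eno3 with Pglyrp1. The ratio of Ace to Adgre4 was lower by -0.28 in bone marrow, with an SD over arrays of 0.12 in bone marrow and 0.26 in spleen. The ratio of Eno3 to Pglyrp1 changed by -0.03, with SDs of 0.19 for bone marrow arrays and 0.27 for spleen arrays.

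**Figure D2:**
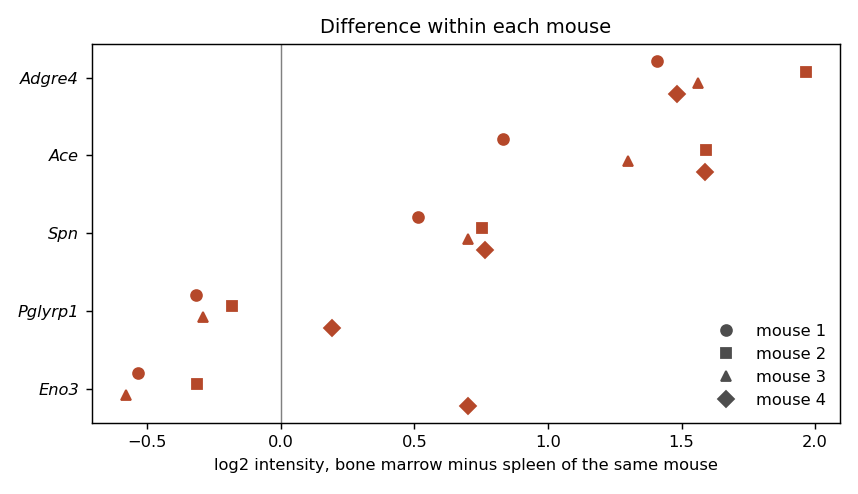
Log2 intensity in bone marrow minus that in spleen of the same mouse (x axis) for the 5 genes, with a marker per mouse. Adgre4, Ace and Spn lie above 0 in all 4 mice, and Pglyrp1 and Eno3 lie below 0 in mice 1 to 3 and above it in mouse 4.

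The bone marrow array of mouse 4 held the highest bone marrow value of all 5 genes. It also held the highest bone marrow value of 12 of 16 other genes of non-classical monocytes, among them Nr4a1, Klf2, Itgal, Ceacam1 and Hes1. The array was the highest of its group in 38.2% of the brighter genes, those with a mean at or above the median gene, and in 24.2% of all genes. It was the lowest of its group in 16% of the brighter genes and in 29.7% of all genes. After quantile normalization it remained the highest for all 5 and for 13 of the 16, with 33.1% of the brighter genes, and after centring arrays on their medians the counts were 5 and 13, with 51%. In the same array 8 of 14 macrophage markers were at their lowest in the group and none at its highest, while 8 of 15 classical dendritic cell markers were at their highest. Of 16 neutrophil markers 5 were at their highest there, and of 12 classical monocyte markers 4 were at their highest and 5 at their lowest. The shares at their highest, 31.2% of neutrophil and 33.3% of classical monocyte markers, lay between those of all genes and of the brighter genes. In spleen no array was the highest for all 5 genes. The part of these markers in the values of the 5 genes was not tested.

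**Figure D3:**
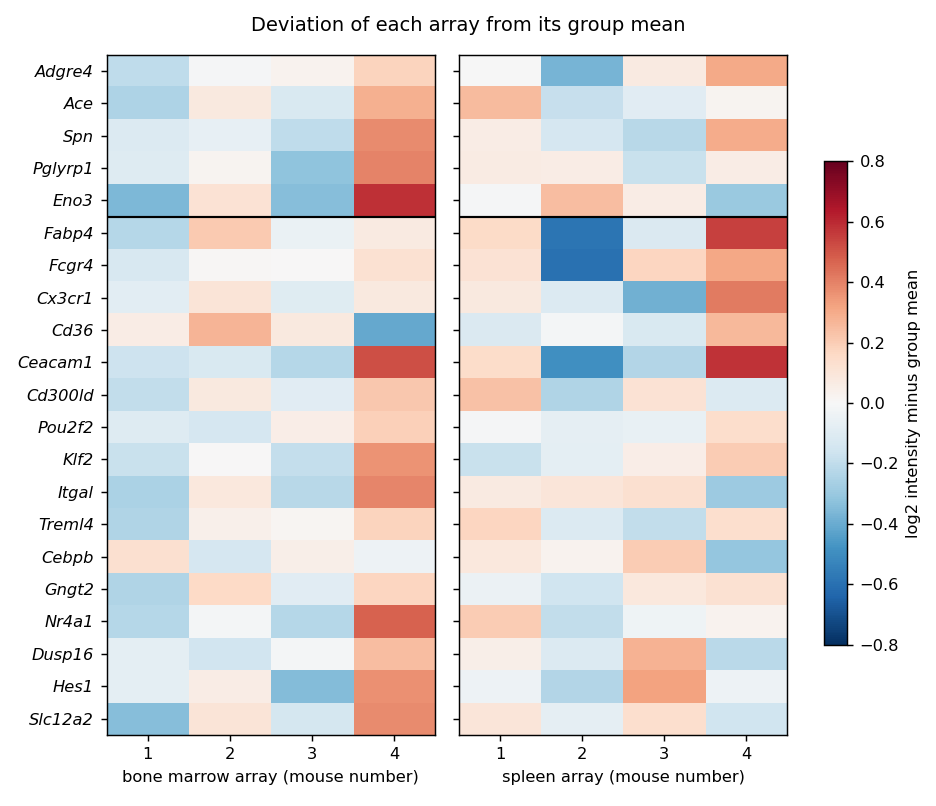
Deviation of each array from the mean of its group in log2 intensity (colour) for the 5 genes, above the line, and for 16 other non-classical monocyte genes, below it; columns are the 4 bone marrow arrays, left, and the 4 spleen arrays, right, by mouse number. The column of bone marrow mouse 4 is red for all 5 genes and for most of the others, with Cd36 as its bluest cell.

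The other genes of non-classical monocytes mostly rose in bone marrow too. Of 16 with a value, 12 were higher, 1 lower and 3 did not pass, with a median log2 fold change of 0.53. Over all genes, 9.26% were called higher and 9.2% lower. Of 18 genes listed, Apoc2 and Ear2 had no value. The list was chosen with earlier results of these data known, so its counts are no separate test of the 5 genes. All 16 are given, most of them outside the rule for named genes. Fabp4, a fatty acid binding protein, rose most, to intensities of 502, 680, 566 and 616 in bone marrow, against 109, 65.4, 90.3 and 143 in spleen (2.58 ± 0.19 on the log2 scale, SE, n = 4 per group, limma adjusted p = 6.4e-07). Fcgr4, an activating Fc gamma receptor, showed a 4.70-fold rise, and Cx3cr1, the fractalkine receptor, a 4.12-fold rise. Whether the Cx3cr1 reporter was part of the gate is not stated in the labels. With Cd36, those 3 genes had larger fold changes than any of the 5, though Cd36 exceeded Adgre4 by little.

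Next in size came the scavenger receptor Cd36, 3.05-fold higher, and the surface receptors Cd300ld and Ceacam1, each 2.20-fold higher. Ceacam1 stood at 1214 in bone marrow replicate 4 and between 725 and 782 in the other bone marrow arrays, against 275 to 575 in spleen. Treml4, a receptor of dead cells, was 1.41-fold higher (limma adjusted p = 0.0061).

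Transcription factors of the lineage showed smaller differences. Klf2, Cebpb and Pou2f2 were 1.49-fold, 1.4-fold and 1.56-fold higher, with groups that did not overlap. Nr4a1, on which formation of these monocytes depends, had intensities of 2049, 2380, 2047 and 3333 in bone marrow, against 2203, 1673, 1867 and 1954 in spleen. Its groups overlapped, and its difference of 0.33 ± 0.15 did not pass (SE, n = 4 per group, 95% interval 0.01 to 0.64, limma adjusted p = 0.17). Nr4a1 is also an early response gene in many cell types. Hes1, a Notch target, had a log2 difference of -0.29 ± 0.15 and did not pass (adjusted p = 0.23).

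The integrin chain Itgal was 1.41-fold and the G protein subunit Gngt2 1.27-fold higher, both near the threshold (limma adjusted p = 0.026 and 0.041). Itgal lost its call when spleen replicate 4 or marrow replicate 2 or 4 was left out (adjusted p from 0.063 to 0.073), and Gngt2 when any single array other than marrow replicate 1 and spleen replicate 4 was left out (0.054 to 0.13). Both calls also ended with median centring (0.055 for Itgal and 0.066 for Gngt2) and without mouse 4 (0.12 for Itgal and 0.088 for Gngt2). The 1 gene that fell was Slc12a2, a sodium, potassium and chloride cotransporter, 1.52-fold lower in bone marrow (-0.60 ± 0.14, adjusted p = 0.0064). Dusp16, a phosphatase of stress kinases, had a log2 difference of -0.17 ± 0.12 and did not pass.

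**Figure D4:**
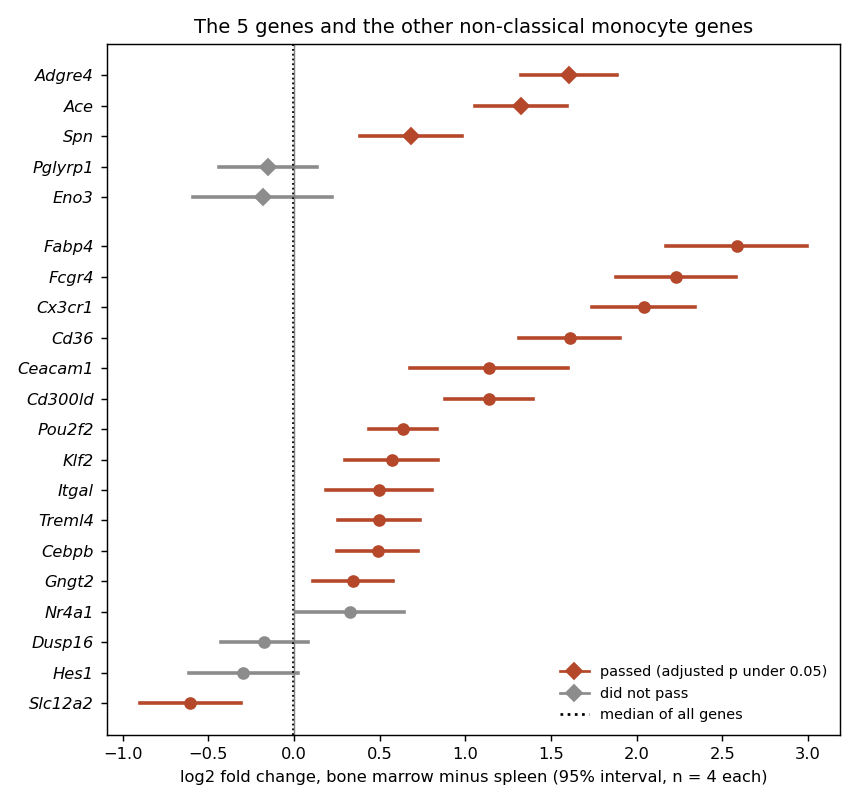
Log2 fold change, bone marrow minus spleen, with its 95% interval (x axis, limma, n = 4 arrays per group) of the 5 genes, diamonds at the top, and of the other 16 non-classical monocyte genes, circles; coloured marks passed an adjusted p of 0.05 and grey ones did not. Adgre4 and Ace lie to the right at 1.61 and 1.33, Spn at 0.68, and the intervals of Pglyrp1 and Eno3 cross 0.

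Among relatives of Adgre4 the direction was mixed. Of 11 adhesion G protein-coupled receptors and ligands with a value, Adgre4 included, 6 were higher and 3 lower. The shares over all genes were 9.26% higher and 9.2% lower. Adgrl2, higher, and Cd55, lower, passed narrowly with overlapping groups (limma adjusted p = 0.047 and 0.0499). Cd55 and Adgrl4, another of the higher genes, lay below the median of every array. Adgrl2, Adgrl4 and Cd55 were named after their values were seen. Adgre1, which encodes the macrophage antigen F4/80, was 1.83-fold higher, at 2739 to 3335 in bone marrow, against 1355 to 1919 in spleen (limma adjusted p = 7.9e-05). Adgre5, which encodes CD97 and is found on most leukocytes, had geometric means of 6844 in bone marrow against 6051 in spleen and did not pass (0.18 ± 0.08 on the log2 scale, SE, n = 4 per group, adjusted p = 0.16), though it did with an intensity trend in the variance model (0.047). Adgrg3 was 1.84-fold higher, and Adgrg6 and Adgrl1 were 2.60-fold and 1.90-fold lower. Adgre4 had the largest rise of the family genes with a value.

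Few other genes of the Ace pathway were called. Of 12 genes of the angiotensin and kinin systems with a value, Ace alone was higher, 1 was lower, and the other 10 did not pass, with a list median of 0.05 on the log2 scale. These counts are near the shares of all genes called, 9.26% higher and 9.2% lower. The lower gene was Anpep, which encodes the aminopeptidase CD13, another peptidase of the myeloid surface. It had intensities of 1012, 1083, 902 and 904 in bone marrow, against 4266, 4361, 3895 and 2891 in spleen (-1.97 ± 0.12, SE, n = 4 per group, limma adjusted p = 1.7e-07). The 2 peptidases thus separated the tissues in opposite directions. Agtr1a and Agtr2, receptors of angiotensin II, and Agt, its precursor, were among those that did not pass. In that order, their geometric means were 79.8, 51.5 and 88.7 in bone marrow, against 73.0, 54.2 and 83.8 in spleen. These lie below the median of every array, and without detection calls it is unknown whether the genes are expressed.

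Spn rose beside a few genes that build or bind leukocyte mucins. Of 14 genes of this kind with a value, Spn included, 5 were higher and 2 lower, with a median log2 fold change of 0.05. The shares over all genes were 9.26% higher and 9.2% lower. Siglec1, the sialic acid binding lectin of macrophages for which CD43 is a known ligand, rose 12.1-fold, with intensities of 1324 to 1860 in bone marrow, against 125 to 136 in spleen. The remaining higher genes, named after their values were seen, were Msn, which encodes the moesin that links CD43 to actin (1.34-fold), and the glycosyltransferases St3gal1 (1.30-fold) and Gcnt1 (1.28-fold). Gcnt1 lost its call when spleen replicate 1 or 2 or any marrow replicate but the first was left out (limma adjusted p from 0.092 to 0.12), and without both arrays of mouse 4 the Gcnt1 and St3gal1 calls ended (0.075 and 0.063). Cd164, another sialomucin, was 1.42-fold lower, a call that ended without mouse 4 (0.051). Ezr, which encodes ezrin, was 1.38-fold lower, which was lost when marrow replicate 1 or 3 or any spleen replicate but the fourth was left out (0.070 to 0.092) and with median centring (0.069).

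Pglyrp1 was set beside neutrophil markers because its protein is stored in their granules. Of 16 neutrophil markers 15 rose in bone marrow and none fell, with a median log2 fold change of 3.14, and their summed intensity ran from 25233 to 33579 in bone marrow, against 2777 to 3710 in spleen. Ngp, which encodes neutrophilic granule protein, was 33.8-fold higher and S100a8, a subunit of calprotectin, 25.2-fold higher. The marker not called was Mmp9, a granule protease named after its values were seen (0.49 on the log2 scale, adjusted p = 0.12). Their part in the Pglyrp1 values was not tested. No intensity is at 0 on these arrays, and no detection call came with them, so whether a dim marker is present in spleen is unknown. Of 9 genes of peptidoglycan recognition and lysozyme with a value, 3 were higher and 1 lower, against shares of 9.26% and 9.2% over all genes. The lysozymes Lyz2 and Lyz1 were 3.26-fold and 2.73-fold higher, and Tlr2, a receptor of bacterial lipoproteins, was 1.92-fold higher. The paralogs Lyz1 and Lyz2 are near-identical, so that probes may share their signal. Nod1, a sensor of peptidoglycan fragments, was 1.56-fold lower (-0.64 ± 0.14, SE, n = 4 per group, limma adjusted p = 0.0047). Pglyrp3 and Pglyrp4, which are known from skin and mucosa, had log2 differences of -0.01 ± 0.09 and -0.03 ± 0.08 and did not pass.

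Eno3 was measured beside the other enolases with a single gene name. Eno2, the neuronal isoform, had intensities of 126 to 132 in bone marrow, against 128 to 179 in spleen, and did not pass (-0.23 ± 0.10 on the log2 scale, SE, n = 4 per group, limma adjusted p = 0.13), though without spleen replicate 3 it did (-0.31, adjusted p = 0.033). Eno4 averaged 75.7 in bone marrow, against 75.3 in spleen, and did not pass. Eno1, the isoform of most tissues, was not analysed here. Of 9 genes of enolases and lower glycolysis with a value, 2 were higher and none lower, against shares of 9.26% and 9.2% over all genes, 18.5% in all. The higher genes were Pgam1, the phosphoglycerate mutase of the step before enolase, 1.30-fold higher, and Pkm, the pyruvate kinase of the step after it, 1.28-fold higher. The Pgam1 call ended with the mouse as a replicate block (adjusted p = 0.061), with median centring (0.056) and when spleen replicate 3 or 4 or marrow replicate 2 or 4 was left out (0.053 to 0.077), and both calls ended without mouse 4 (0.15 for Pgam1 and 0.078 for Pkm).

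**Figure D5:**
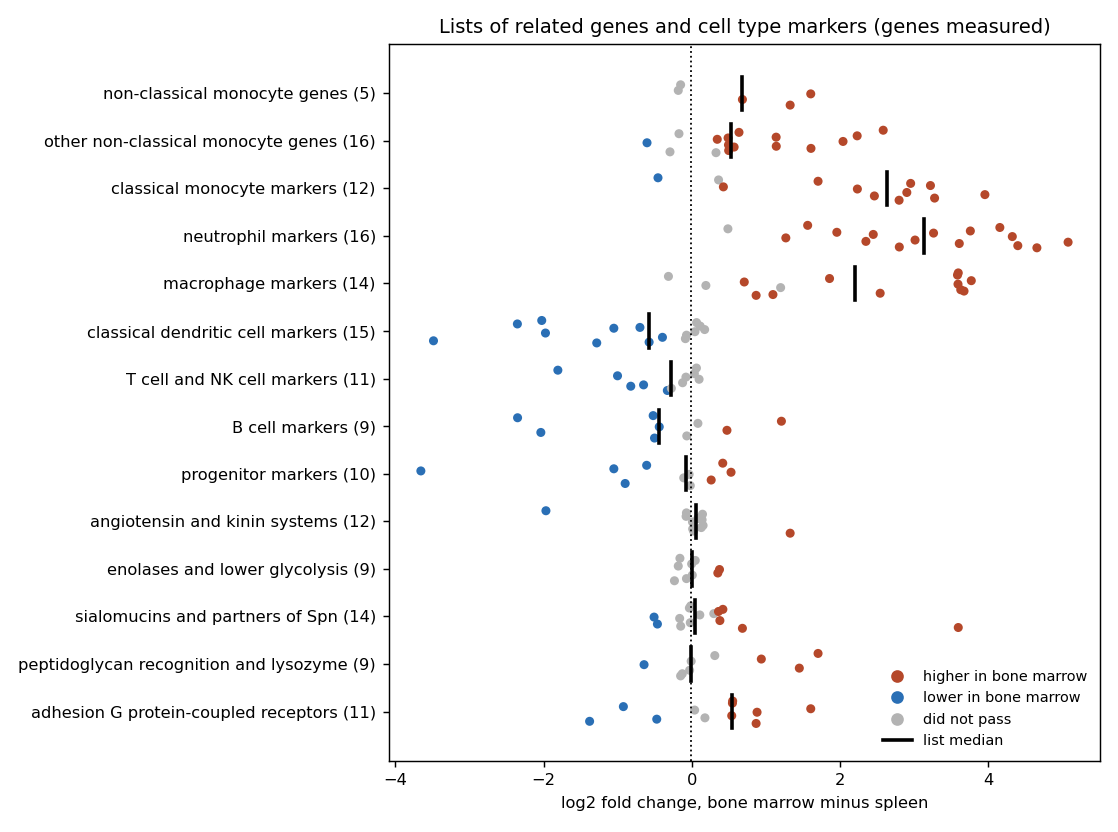
Log2 fold change, bone marrow minus spleen (x axis), of every measured gene of the 5 non-classical monocyte genes, their relatives and the marker lists of other cells; red and blue points passed as higher and lower in bone marrow, grey ones did not pass, bars are list medians and the dotted line is the median of all genes. The medians of the neutrophil, classical monocyte and macrophage markers lie farther to the right than that of the 5 genes. Single markers of these lists, such as Plac8, lie to the left of 0. The dendritic cell markers lie mostly to the left.

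Markers of other cells moved in the same arrays in which Adgre4, Ace and Spn rose. Of 12 classical monocyte markers 10 were higher and 1 lower, with a median log2 fold change of 2.63 and sums of 34474 to 37232 in bone marrow, against 15714 to 19278 in spleen. The shares over all genes were 9.26% higher and 9.2% lower. In spleen the brightest genes of that sum were Plac8, Lyz2 and Ms4a6c, the last named after its values were seen. F13a1 and Fcgr1, a coagulation factor chain and an Fc receptor, were 15.5-fold and 9.69-fold higher. Plac8 was 1.37-fold lower (limma adjusted p = 0.045), a call that ended without any 1 spleen replicate or bone marrow replicate 1, 2 or 3 (0.053 to 0.14), with median centring (0.087) and with an offset of 32 (0.076). Of 14 macrophage markers 11 were higher and none lower, with sums of 27434 to 38369 in bone marrow, against 6360 to 7216 in spleen. Mrc1 and Axl, the mannose receptor and a receptor of dying cells, were 13.7-fold and 12.8-fold higher. The median log2 fold changes of these lists, 2.63 and 2.20, exceeded the 0.68 of the 5 genes, though single markers moved less than Adgre4. The part of these lists in the rise of Adgre4, Ace and Spn was not tested.

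The dendritic label was checked against its markers. Of 15 classical dendritic cell markers 9 were lower in bone marrow and none higher, with sums of 48473 to 51887 in bone marrow, against 55753 to 60038 in spleen. The shares over all genes were 9.2% lower and 9.26% higher. H2-Ab1 and Cd74, the latter named after its values were seen, were the brightest genes in these sums. Cd74 had geometric means of 12955 in bone marrow against 12578 in spleen, so the sums say little of the dimmer markers. H2-Ab1, a class II chain, had geometric means of 15354 in bone marrow against 14678 in spleen and did not pass. Itgax, which encodes CD11c, was 1.32-fold lower, with 6409 in bone marrow against 8432 in spleen. Zbtb46, a factor specific to classical dendritic cells among leukocytes, had a 2.43-fold lower level, and the growth factor receptor Flt3 a 2.07-fold lower one. The subset markers Xcr1 and Esam were 11.2-fold and 5.11-fold lower. Clec9a, Batf3, Sirpa and Irf4, also subset markers and named after their values were seen, did not pass. Their log2 differences were 0.11, -0.07, 0.17 and -0.09.

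CD43, the product of Spn, is found on many leukocytes, among them T cells, NK cells and progenitors. As given above, 15 of 16 neutrophil markers were higher in bone marrow. Markers of T and NK cells were lower or not called, and those of progenitors went both ways. The part of these cells in the rise of Spn was not tested. Of 11 T cell and NK cell markers 5 were lower and none higher, with Cd5 3.50-fold and Cd3g 2.00-fold lower. Their sums were 972 to 1168 in bone marrow, against 1567 to 1938 in spleen. Of 9 B cell markers 2 were higher, Vpreb1 and Igll1, and 5 lower, among them Cd22 and Ms4a1. Of 10 progenitor markers 3 were higher, including Erg and Myb at 1.44-fold and 1.34-fold, and 4 lower, with Kit 12.6-fold lower. Over all genes, the shares were 9.26% higher and 9.2% lower. Erg lay below the median of every array, and Kit stood at 2941 to 4116 in the spleen arrays. Flt3 was counted among both the lower progenitor markers and the lower dendritic cell markers.

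The genes whose profiles over the 8 arrays were most like those of the 5 were found by the root mean square difference of log2 intensities after centring each gene on its mean, among 9526 genes at or above the median gene in brightness. Genes so chosen have fold changes close to that of the gene they resemble, so their folds and calls follow largely from the choice. Nearest to Adgre4 were Nrp1 (0.093) and Gpr31b (0.13), which were 3.00-fold and 2.96-fold higher in bone marrow. Nearest to Ace were Rnf144a (0.073) and Smpdl3a (0.11), 2.41-fold and 2.37-fold higher. Spn was followed most closely by Rasgrp2 (0.10) and Klrk1 (0.13), 1.63-fold and 1.84-fold higher. Klrk1 encodes the receptor NKG2D of lymphocytes, and Rasgrp2 an activator of Rap1 that integrin signalling uses. For Pglyrp1 the nearest were Arl2bp (0.044) and H1f1 (0.069), and for Eno3 Naif1 (0.074) and H2bc14 (0.13), none of which passed the test.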

How the data were processed

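The authors deposited linear intensities, 1 for each probe set on each array, and the submitters' processing notes name Affymetrix Expression Console 1.4. How background was corrected and arrays normalized is not stated. Array medians lay between 125 and 135. No detection call came with the values, so the detection of dim genes is unknown, and the number of arrays limits the precision. Groups and mice were taken from titles and descriptions.

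Of 35556 probe sets, 21789 had exactly 1 gene symbol in the platform annotation, and the brightest per gene gave 19938 genes. The log2 intensities were tested over all genes, bone marrow minus spleen, by limma 3.58.1 (R 4.3.3, lmFit and eBayes) with Benjamini-Hochberg adjustment and a threshold of 0.05. The scripts were first tested on simulated data. P-values measure the spread among the 4 arrays of a tissue, 1 per mouse. The labels give each mouse 1 array per tissue, and the deviations of its 2 arrays from their group means correlated across genes with r of 0.096, -0.088, -0.18 and -0.054 for mice 1 to 4; a fit with the mouse as block was an alternative.

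The 5 genes and all lists (177 memberships, 163 with a value) were chosen with earlier results of these data known. The genes named are the 5, paralogs, identity genes, the nearest profiles and, per list and direction, at most 2 with the largest called fold. Msn, St3gal1, Gcnt1, Tlr2 and the other non-classical monocyte genes were named once their values were known. Alternatives were quantile normalization, median centring, leaving out the dimmest 40% of genes, the mean of probe sets, an offset of 32, an intensity trend, array weights, the block and each array left out, with both arrays of mouse 4 left out as a later addition.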

Additional observations from a re-analysis of the deposited data

Results flagged for a closer look

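Of 150 groups of 4 arrays (75 named genes in each tissue), 11 held an array whose gap to its nearest neighbour exceeded Dixon's 95% critical share of the group's range, where chance gives about 1 in 20. Among the 5 genes this was so for Pglyrp1 in spleen, where replicate 3 stood at 974 and the next at 1147. Bone marrow replicate 4 stood apart in Ceacam1 (highest, 1214, against 782 for the next), Eno2 (highest, 132, against 127) and Lyz1 (lowest, 1411, against 2414). Spleen replicate 4 stood apart in Itgal (lowest, 1055), S100a8 (lowest, 117), Adgrl1 (highest, 331) and Klrk1 (highest, 509). The remaining ones were Fcgr1 in bone marrow replicate 1 (lowest, 969), Erg in bone marrow replicate 3 (highest, 122) and Myb in spleen replicate 1 (lowest, 132).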

How the results depend on the processing

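Adgre4, Ace and Spn kept their direction and passed the threshold under all 17 alternatives, with log2 differences of 1.48 to 1.71, 1.23 to 1.41 and 0.56 to 0.78 and adjusted p of at most 3.3e-05, 8e-05 and 0.014. Pglyrp1 passed under none (-0.28 to -0.04), and its value moved most without bone marrow replicate 4 (-0.28, adjusted p = 0.095) and without bone marrow replicate 3 (-0.04). Eno3 ranged from -0.38 to -0.06 with 1 array left out and passed only with both arrays of mouse 4 left out (-0.48, adjusted p = 0.031), the setting in which 1 of the 5 genes was lower; the cause was not tested. With the mouse as a replicate block the log2 difference of Spn remained 0.68, and the block changed no call among the 5 genes; of the genes named it ended that of Pgam1 alone. The count of other non-classical monocyte genes called higher was 10 to 12 over the alternatives, and 1 was lower in each. Median centring ended the calls of Itgal, Gngt2, Pgam1, Plac8 and Ezr among the genes named. Genes near no change turned sign. Eno4 ranged from -0.031 to 0.053, Pglyrp3 from -0.072 to 0.033 and Pglyrp4 from -0.10 to 0.011 with 1 array left out, Pglyrp3 was 0.0031 with median centring, and Pglyrp3 and Pglyrp4 were 0.069 and 0.015 without mouse 4. The absence of detection calls limits what can be said of dim genes.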
